A study of Homo sapiens with 2 samples.

Results

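The genes described here encode the enzymes that write 5-methylcytosine (m5C) on RNA and the proteins that read it, as measured in the RNA of 2 human breast cell lines. They are 9 genes chosen by name, beside 15614 genes in all that had at least 1 listed exonic cytosine: the methyltransferases NSUN2, NSUN3, NSUN4, NSUN5, NSUN6, NOP2 and TRDMT1, and the readers ALYREF and YBX1. A cytosine counted toward a gene when it lay on a same-strand exon of a GENCODE release 44 basic transcript mapped to GRCh37. Of the 9 genes, 8 had a listed exonic cytosine in MCF10A and 7 in the MDA-MB-468 library.

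MCF10A is a non-tumorigenic mammary epithelial cell line, whose tissue the labels give as epithelial, and MDA-MB-468 is a breast cancer cell line, whose tissue they give as cancer. Both came from a cell repository and carry no treatment label, and each contributed 1 library, so nothing in the data measures the spread between cultures. The labels name the same growth medium for both lines but the study's methods give a different one for each, so medium and line cannot be told apart. Poly(A)-selected RNA was exposed to bisulfite at 60 degrees for 8 hours, which turns unmodified cytosine into uracil and spares m5C. A read therefore counts as unconverted or converted at each cytosine it covers, and coverage is the sum of both counts.

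Methylation of carbon 5 of cytosine in RNA is laid down by the NSUN family and by TRDMT1 (DNMT2), each with its own substrates. NSUN2 methylates tRNAs and many mRNA cytosines, NSUN6 methylates some tRNAs and mRNAs, and NSUN3 acts on a mitochondrial tRNA. NOP2 (NSUN1) and NSUN5 methylate the large ribosomal RNA, NSUN4 the small ribosomal RNA of mitochondria, and TRDMT1 a tRNA. ALYREF is an mRNA export adaptor that binds m5C, and YBX1 is a cold shock domain protein that binds m5C and stabilises mRNAs. The mRNAs of these genes can themselves carry m5C, and they can be counted like any other.

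The cytosines of these mRNAs that passed the test for m5C in at least 1 library were 6. They are shown because the statements on m5C sites below turn on them. Each line gives the 29 bases around the site of GRCh37, written as the RNA reads, with the tested cytosine in capitals.
NSUN2 3′UTR site, exon 19 of 19, chr5:6600009-6600037, minus strand: caggcccaaggcagCgggggcccacaccc
NOP2 CDS site, exon 7 of 16, chr12:6672826-6672854, minus strand: aggcagatgggggcCtgcagatcaatgtg
ALYREF CDS site, exon 5 of 6, chr17:79846208-79846236, minus strand: ggcacccggagaggCacccgcggaggcgc
ALYREF CDS site, exon 1 of 6, chr17:79849246-79849274, minus strand: catccggaaccggcCggccatcgcccgcg
YBX1 CDS site, exon 1 of 8, chr1:43148342-43148370, plus strand: agcggtggcccgggCggcctcacatcggc
YBX1 CDS site, exon 5 of 8, chr1:43162349-43162377, plus strand: gttccagttcaaggCagtaaatatgcagc

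The libraries held 76098976 counts at 3146911 cytosines in MCF10A and 90960018 counts at 3489803 cytosines in MDA-MB-468, each with a coverage of at least 5. Nuclear exons took 90.5% of the counts in MCF10A and 54.3% in the MDA-MB-468 library. Of the 5 epithelial markers, KRT8 (10958 counts), KRT18 (4904) and KRT19 (1792) were present in MCF10A, while EPCAM (5) and CDH1 (33) were near 0, and all 5 were at least 2-fold higher in MDA-MB-468. The 5 basal markers did not move together. VIM held 339845 counts in MCF10A and 68 in the MDA-MB-468 library, KRT17 was 12.4-fold higher in MDA-MB-468, KRT5 was within 2-fold, KRT14 had 222 counts and 0, and TP63 was listed at 0 in both. EGFR, which is amplified in MDA-MB-468, was 12.7-fold higher there, and CDKN2A, which is deleted in MCF10A, was listed at 0 in MCF10A and held 11592 counts in MDA-MB-468. The hormone receptor genes ESR1 and PGR and the leukocyte gene PTPRC were listed at 0 in both, while COL1A1, a gene of fibroblasts, had 319 counts in MCF10A and 6276 in the MDA-MB-468 library.

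The RNA level is used here as a rough guide to abundance. It is the number of counts per 1000 exonic cytosines of the gene per 1000000 counts on nuclear exons of the library. Counts at neighbouring cytosines come from the same reads. A cytosine that is not listed may still have had 0 to 4 counts. At the library's total of listed counts each level is a minimum, and an upper bound gives every unlisted cytosine of the gene 4 counts. Unlisted counts of other genes would raise that total, which was held fixed. The bounds and ranges below hold at this scaling alone. With 1 library per line no test was possible, and a gene was called past the threshold at a 2-fold difference. The comparison needed on average 20 listed cytosines per library, which 10409 protein-coding genes had. Of these, 26.5% were at least 2-fold higher and 34.1% at least 2-fold lower in MDA-MB-468. Of the 9 genes, 6 could be compared, with 1 higher and 2 lower, so shifts of this size were common among all genes.

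NSUN2, the methyltransferase of mRNA and tRNA (chr5:6599352-6633157, minus strand), was the gene at least 2-fold higher in MDA-MB-468. It had 3077 counts at 250 of its 628 exonic cytosines in MCF10A and 7698 counts at 356 of them in MDA-MB-468. The RNA level was 71.2 in MCF10A (upper bound 106) and 248 in the MDA-MB-468 library (upper bound 283). The ranges did not overlap, and the log2 ratio of MDA-MB-468 over MCF10A was 1.80, a 3.49-fold difference, with bounds of 1.22 and 1.99. In MCF10A the level of NSUN2 lay above that of 67.8% of the compared genes, and in MDA-MB-468 above 89.1%. In these bulk libraries, more cells with NSUN2 RNA and more RNA per cell cannot be told apart. The introns of NSUN2 held 223 counts at 39 cytosines in MCF10A and 3779 counts at 431 cytosines in MDA-MB-468. The latter library had the lower exonic share as a whole. Intronic counts were also higher there in ALYREF (0 and 220), NOP2 (11 and 103) and NSUN5 (0 and 30). The exonic levels of these genes were within 2-fold. YBX1 had 66 and 116 intronic counts, although its exonic level was lower in MDA-MB-468. NSUN3 had 0 and 15, and NSUN4, NSUN6 and TRDMT1 had 0 in both libraries. More intronic counts in MDA-MB-468 were thus not particular to NSUN2. The part of unspliced RNA in the exonic counts was not tested.

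The difference in NSUN2 was uneven along the mRNA, which is 3056 nt long. From nt 501 to 1000, the levels were 45.9 in MCF10A and 43.9 in the MDA-MB-468 library, a log2 ratio of -0.06. From nt 2001 to 2500, which covers the end of the CDS and the start of the 3′UTR, they were 157 and 736, a log2 ratio of 2.23 (bounds 2.06 and 2.26). The first 500 nt gave a log2 ratio of 1.49, with bounds of 0.58 and 1.86, which overlap those of nt 501 to 1000. The log2 ratio was 1.56 from nt 1001 to 1500, 1.32 from nt 1501 to 2000 and 2.71 from nt 2501 to 3000. The 5′UTR held 105 counts at 15 cytosines in MCF10A and 93 counts at 16 in the MDA-MB-468 library. In the CDS the counts were 2754 and 6663, and in the 3′UTR 218 and 942.

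NOP2, which methylates the large ribosomal RNA and is needed for ribosome assembly (chr12:6666029-6677857, minus strand), had 5231 counts at 432 of 962 exonic cytosines in MCF10A and 4438 counts at 418 in the MDA-MB-468 library. Its levels were 79.0 (upper bound 111) and 93.3 (upper bound 139). These ranges overlapped, and the log2 ratio was 0.24 with bounds of -0.25 and 0.82. A same-strand protein-coding gene shares 2538 bases of the NOP2 exons, so reads of both annotations cannot be told apart there.

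NSUN5, also an enzyme of the large ribosomal RNA (chr7:72716513-72722823, minus strand), had 1404 counts at 148 of 689 cytosines in MCF10A and 1619 at 155 in the MDA-MB-468 library. The levels were 29.6 and 47.5, a log2 ratio of 0.68 with bounds of -0.66 and 1.90. Reads of NSUN5 resemble those of its copies NSUN5P1 and NSUN5P2. An exact copy of the converted 50 bases around the cytosine occurred elsewhere in the genome for 11 of the 148 listed cytosines in MCF10A and 13 of 155 in the MDA-MB-468 library. The copies held 520 counts in MCF10A and 816 in the MDA-MB-468 library, and with them added the log2 ratio was 0.82.

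NSUN4, which acts on mitochondrial ribosomal RNA (chr1:46806479-46830690, plus strand), was sparsely covered. It had 1132 counts at 172 of 2106 cytosines in MCF10A and 293 counts at 52 in the MDA-MB-468 library. The level was 7.81 in MCF10A and 2.81 in the MDA-MB-468 library, a log2 ratio of -1.47. This was past 2-fold, but the bounds of -4.44 and 3.39 included both directions, so the depth did not settle it. In the first 500 nt of the mRNA the counts were 442 and 51, while from nt 3501 to 4000 they were 83 and 132.

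NSUN6, the enzyme of mRNA and tRNA cytosines that open a CTCCA stretch (chr10:18834490-18940516, minus strand), had 104 counts at 14 of 391 cytosines in MCF10A and 18 counts at 3 in the MDA-MB-468 library. NSUN3 (chr3:93781905-93850676, plus strand) had 30 counts at 5 of 1238 cytosines in MCF10A and was listed at 0 in MDA-MB-468. TRDMT1 (chr10:17179335-17243671, minus strand) was listed at 0 in both libraries over 2640 exonic cytosines. These 3 genes were not compared. The upper bound of their level was between 58.1 and 59.9 in MCF10A and between 80.9 and 81.2 in MDA-MB-468, above the measured levels of NSUN5, so the depth does not settle how abundant these RNAs were, or, where a gene was listed at 0, whether its RNA was present.

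Of the readers, ALYREF, the export adaptor (chr17:79845711-79849462, minus strand), had overlapping ranges of the level in both libraries. It had 4286 counts at 211 of 272 cytosines in MCF10A and 2846 counts at 172 in the MDA-MB-468 library. The levels were 229 (upper bound 242) and 212 (upper bound 241), a log2 ratio of -0.11 with bounds of -0.19 and 0.08. The ratio differed by position here too. In the first 500 nt of the 1097 nt mRNA it was -0.61 (bounds -0.71 and -0.27), and from nt 501 to 1000 it was 0.32 (bounds 0.29 and 0.38). ANAPC11 overlaps the exons of ALYREF by 31 bases on the other strand, and no antisense cytosine was listed on them.

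YBX1, the cold shock domain reader (chr1:43148089-43169476, plus strand), had the highest level of the 9 genes in MCF10A and was lower in MDA-MB-468. It had 26664 counts at 245 of 687 cytosines in MCF10A and 7017 counts at 180 in the MDA-MB-468 library. The levels were 564 (upper bound 601) and 207 (upper bound 266), and the ranges did not overlap. The log2 ratio was -1.45, a 2.73-fold lower level in MDA-MB-468, with bounds of -1.54 and -1.08. Along the mRNA the log2 ratio was -1.92 in the first 500 nt and -0.98 from nt 501 to 1000. The 3′UTR held 109 counts at 12 of 366 cytosines in MCF10A and none in MDA-MB-468.

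Part of the YBX1 sequence exists elsewhere in the genome as processed pseudogenes. In MCF10A 114 of the 245 listed cytosines, and in MDA-MB-468 69 of 180, had an exact converted copy elsewhere. Of the 10 annotated pseudogenes, 4 had listed cytosines in each library. They held 5322 counts in MCF10A, 19.96% of the number on YBX1, and 1322 counts in MDA-MB-468, 18.8% of it. Adding these counts left the log2 ratio at -1.46.

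**Figure D1:**
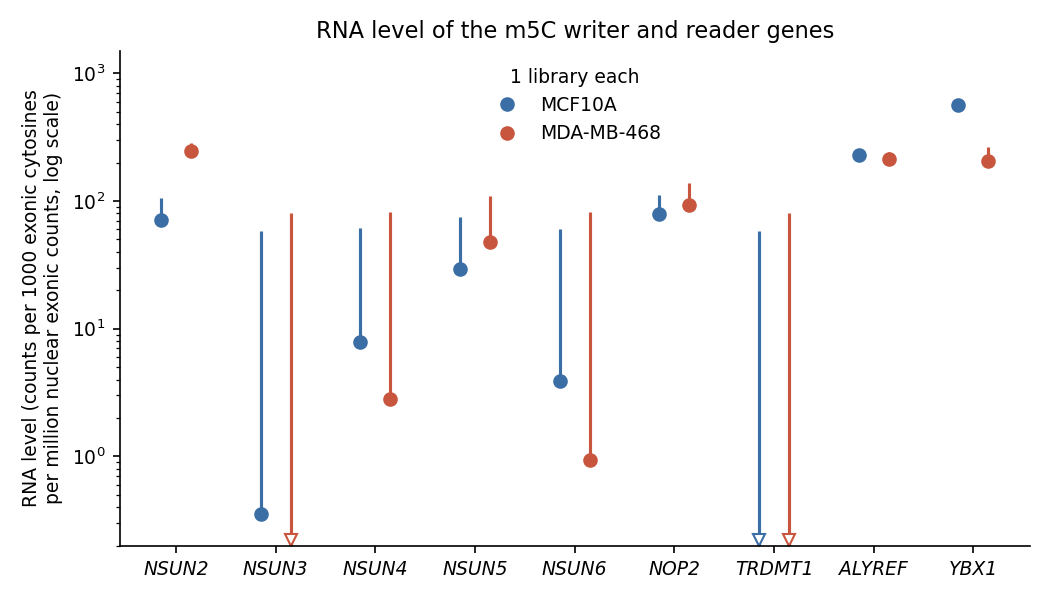
RNA level of each gene (vertical axis, counts per 1000 exonic cytosines per 1000000 nuclear exonic counts, log scale) in the MCF10A library (blue) and the MDA-MB-468 library (red), 1 library each. Points are the listed counts, lines reach the upper bound with 4 counts at every unlisted cytosine, and open triangles mark genes listed at 0. NSUN2 and YBX1 are the genes whose lines do not overlap between the libraries.

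Within MCF10A the levels fell in the order YBX1, ALYREF, NOP2, NSUN2, NSUN5, NSUN4, NSUN6 and NSUN3. The range of NSUN2 overlapped that of NOP2 and that of NSUN5, and those of NSUN5, NSUN4, NSUN6, NSUN3 and TRDMT1 overlapped among themselves. In MDA-MB-468 NSUN2 came first, and its range overlapped that of YBX1 but not that of ALYREF. ALYREF and YBX1 overlapped each other, NOP2 followed, and its range overlapped that of NSUN5, which in turn overlapped those of NSUN4, NSUN6, NSUN3 and TRDMT1.

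The scaling bears on each of these ratios, because the median log2 ratio over the 8991 compared genes with counts in both libraries was -0.20. Set against that median, the log2 ratio was 2.004 for NSUN2, -1.25 for YBX1, 0.89 for NSUN5, 0.44 for NOP2, -1.27 for NSUN4 and 0.09 for ALYREF, so the sign of ALYREF turned. Of the 8991 genes, 41.9% of those past 2-fold were higher in MDA-MB-468. That share was 80.6% with counts per listed cytosine, 52.5% over the cytosines listed in both libraries, for which 7491 genes could be compared, and 21.3% with scaling by all counts of the file. Across the 6 alternatives tried, the log2 ratio of NSUN2 lay between 1.07 and 3.24 and that of YBX1 between -2.18 and -1.003. Both ratios of the listed counts thus kept their direction and stayed past 2-fold. The bounds of 1.22 for NSUN2 and -1.08 for YBX1 belong to the scaling by nuclear exonic counts and were not recomputed. Scaling by all counts of the file would bring the first within 2-fold, and scaling to the median the second.

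**Figure D2:**
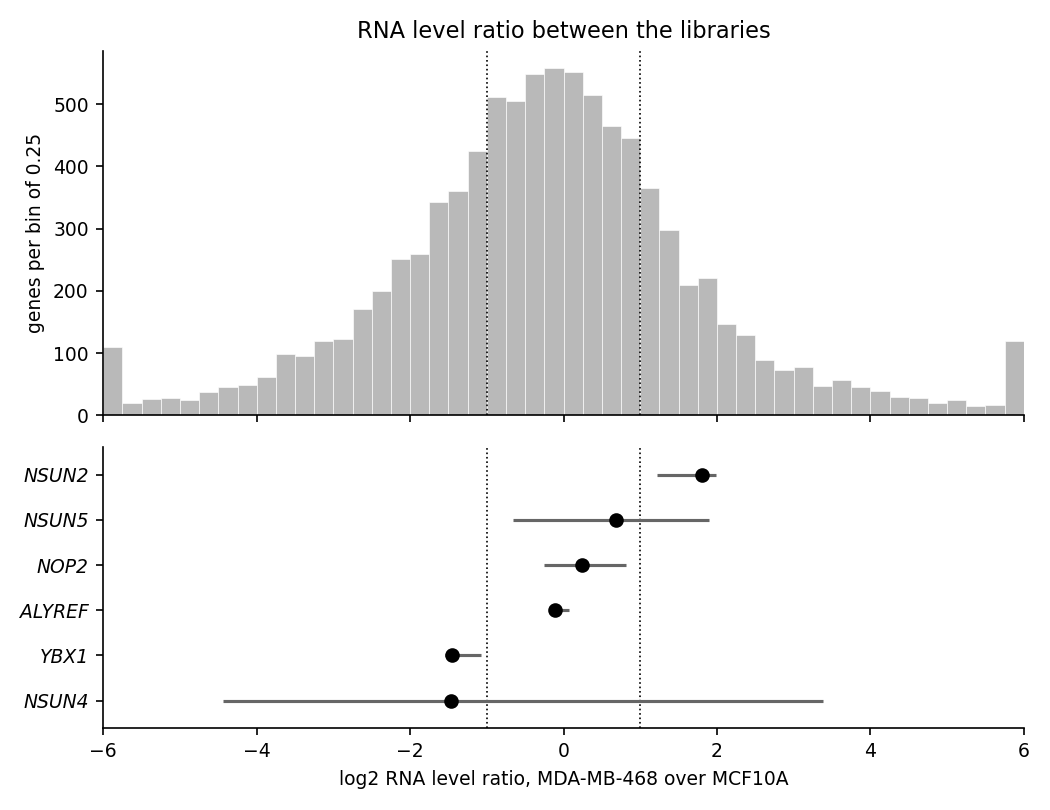
Log2 RNA level ratio of MDA-MB-468 over MCF10A (horizontal axis). The upper panel counts the 8991 compared protein-coding genes with counts in both libraries in bins of 0.25, with values beyond 6 in the end bins. The lower panel shows the 6 compared writer and reader genes. A line runs from the lowest to the highest ratio that unlisted cytosines of the gene allow, with the scaling held fixed. Dotted lines mark 2-fold. With scaling by nuclear exonic counts, the lines of NSUN2 and YBX1 stay past 2-fold, and that of NSUN4 spans both directions.

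Genes that act with these proteins were taken as 4 further lists. Their levels are minima, and no upper bounds were computed for them, so the depth may not settle these folds and directions. The counts of each list stand beside the 26.5% higher and 34.1% lower of all compared genes. The minimum of listed cytosines is a mean over both libraries, so a gene can pass it through 1 library alone. Of the 6 relatives and partners of the methyltransferases, 5 could be compared. Of these, 3 were at least 2-fold higher in MDA-MB-468 and none lower, and the 3 are DNA methyltransferases. The median log2 ratio was 1.36 against -0.20 over all genes. The DNA methyltransferase DNMT1 had levels of 69.4 in MCF10A and 178 in the MDA-MB-468 library. DNMT3A, which sets up new DNA methylation, had 10.7 and 73.9, and its relative DNMT3B had 5 counts at 1 cytosine in MCF10A and 2382 counts at 296 in the MDA-MB-468 library. DNMT3B thus passed the minimum through MDA-MB-468 alone. UHRF1, the DNMT1 partner, had 47.3 and 38.0 and was within 2-fold. MTERF4 had 19.4 and 11.6, also within 2-fold, and NSUN7 had 0 and 245 counts and was not compared.

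Of the 12 genes of mRNA export, which work with ALYREF, all were compared, and 2 were higher, 3 lower and 7 within 2-fold, with a median log2 ratio of -0.23. The helicase DDX39A had levels of 104 and 272, 2.60-fold higher in MDA-MB-468, and its relative DDX39B had 295 and 485, within 2-fold. The export factor subunit NXT1 had 177 and 87.0, 2.03-fold lower, and THOC6 of the THO complex had 170 and 112, within 2-fold.

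Among 8 further binding proteins and YBX1 partners, 7 were compared, with 2 higher, 3 lower and 2 within 2-fold. The median log2 ratio was -0.83 over the genes with counts in both libraries. YBX3, a cold shock domain relative of YBX1, had levels of 1014 in MCF10A and 401 in the MDA-MB-468 library, 2.53-fold lower. YTHDF2, a reader of m6A that also binds m5C, had 85.5 and 41.0, 2.09-fold lower, and the splicing factor SRSF2 had 466 and 517. YBX2, the germ cell relative, was listed at 0 in MCF10A and had 1987 counts at 155 cytosines in MDA-MB-468. It is among the 2 higher and passed the minimum through MDA-MB-468 alone. Of the 4 genes of m5C oxidation and removal, TET3 could be compared, with levels of 4.83 and 19.8. TET1 had 0 and 153 counts, TET2 149 and 25, and ALKBH1 89 and 162.

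Whether these mRNAs carry m5C was asked next. Sites with a coverage of at least 10 were kept, which left 790 on the 9 genes in MCF10A and 729 in the MDA-MB-468 library, with a median coverage of 20 and 18. NSUN3, NSUN6 and TRDMT1 had no kept site in either library, and NSUN4 had 20 in MCF10A and none in MDA-MB-468. Each kept site was compared with the nonconversion rate of its library, 1.99% in MCF10A and 1.81% in the MDA-MB-468 library, by a one-sided Fisher's exact test with Benjamini-Hochberg adjustment over all kept sites of the library and an FDR threshold of 0.05. Of all kept sites, the mitochondrial ones included, 0.96% passed in MCF10A and 0.84% in the other library. Of the nuclear exonic ones, 0.851% passed in MCF10A and 0.742% in the MDA-MB-468 library. Neither this background nor these sites were filtered for structure. The study filtered predicted structures first and reported a higher nonconversion rate and a lower share of m5C sites in both lines. The sites that passed here are thus not the study's calls. On the 9 genes 3 sites passed in MCF10A, 0.380% (95% Wilson interval 0.129% to 1.11%), and 3 in MDA-MB-468, 0.412% (0.140% to 1.20%). The intervals, which cover counting error alone, include the share over all genes, and no site passed in both libraries.

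The site with the highest methylation ratio lay in the 3′UTR of NSUN2, at chr5:6600023, 2385 nt from the start of the mRNA. In MDA-MB-468 15 of 35 counts were unconverted, a methylation ratio of 42.9% (95% Wilson interval 27.98% to 59.1%; Fisher's exact test, adjusted p = 1.03e-14). In MCF10A 1 of 11 counts was unconverted, 9.09% (1.62% to 37.7%), and the intervals overlap. The 8 listed cytosines within 10 nt in MDA-MB-468, at any coverage, had 4 of 171 counts unconverted, 2.34%, so the ratio was high at this cytosine and not at those around it. Most of these counts lay before the site, since coverage fell from 35 at the site to 6 at nt 2391. Whether this edge of coverage bears on the ratio was not tested. Among all nuclear m5C sites of MDA-MB-468, 13.2% lacked another m5C site within 10 nt. The site was not in a predicted base pair, and no exact converted copy of its surroundings occurred elsewhere in the genome.

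As its sequence shows, the NSUN2 site is followed by a run of G. It matches CNGGG, the context of NSUN2 substrates, read in the direction of the RNA from the tested cytosine. That context held 3.50% of the kept nuclear exonic sites of MDA-MB-468, of which 1.84% were m5C sites. On the 9 genes 21 kept sites of MDA-MB-468 were in it and this 1 passed. Their nonconversion rate was 6.91% with this site and 3.51% (95% Wilson interval 2.06% to 5.92%) without the m5C site. All nuclear sites in the context, m5C sites included, had 2.68%. In MCF10A 19 sites were in the context and none passed. Their rate was 3.80% (2.65% to 5.44%), an interval that includes the 2.98% of all nuclear sites in the context. The context of NSUN6, CTCCA from the tested cytosine, held 6 kept sites of these genes in MCF10A and 5 in the MDA-MB-468 library, and none of them passed.

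The NOP2 site, at chr12:6672840 in the CDS, had 4 of 16 counts unconverted in MDA-MB-468, 25% (95% Wilson interval 10.2% to 49.5%; Fisher's exact test, adjusted p = 0.0213). In MCF10A it had 2 of 25, 8.00%. It was in a predicted base pair, which was counted if found in any folded transcript of the gene. In a base pair bisulfite reaches cytosine less well. The 3 listed neighbours of the site within 10 nt had 3 of 71 counts unconverted in MDA-MB-468.

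ALYREF had a different site in each library. At chr17:79849260, in exon 1, 6 of 34 counts were unconverted in MCF10A, 17.6% (95% Wilson interval 8.35% to 33.5%; Fisher's exact test, adjusted p = 0.00687), and 0 of 11 in MDA-MB-468. The 9 neighbours within 10 nt had 13 of 305 counts unconverted in MCF10A, 4.26%, above the background of that library. At chr17:79846222, in exon 5, 4 of 20 counts were unconverted in MDA-MB-468, 20% (8.07% to 41.6%; Fisher's exact test, adjusted p = 0.0491), and 1 of 20 in MCF10A. All 7 of its neighbours had an unconverted count in MDA-MB-468, 10 of 184 in all or 5.43%, whereas in MCF10A they had 0 of 142, which allows up to 2.63% by the Wilson interval.

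YBX1 had 2 m5C sites in MCF10A. The site in exon 1, at chr1:43148356, had 11 of 148 counts unconverted, 7.43% (95% Wilson interval 4.20% to 12.8%; Fisher's exact test, adjusted p = 0.0236), and 0 of 25 in MDA-MB-468. All 7 of its neighbours had unconverted counts, 33 of 1101 or 2.997%. The site in exon 5, at chr1:43162363, was named after its values were seen. It had 10 of 77 counts unconverted in MCF10A, 13.0% (7.21% to 22.3%; Fisher's exact test, adjusted p = 0.000526), and 3 of 27 in MDA-MB-468, 11.1% (3.85% to 28.1%), which did not pass at that coverage. Its 2 neighbours had 1 of 142 counts unconverted in MCF10A and 0 of 32 in the MDA-MB-468 library, so in both libraries the ratio was higher at this cytosine than at those beside it, though not past the threshold in MDA-MB-468. An exact converted copy of the surroundings of both YBX1 sites occurred elsewhere in the genome, so reads of a pseudogene could not be told apart there.

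**Figure D3:**
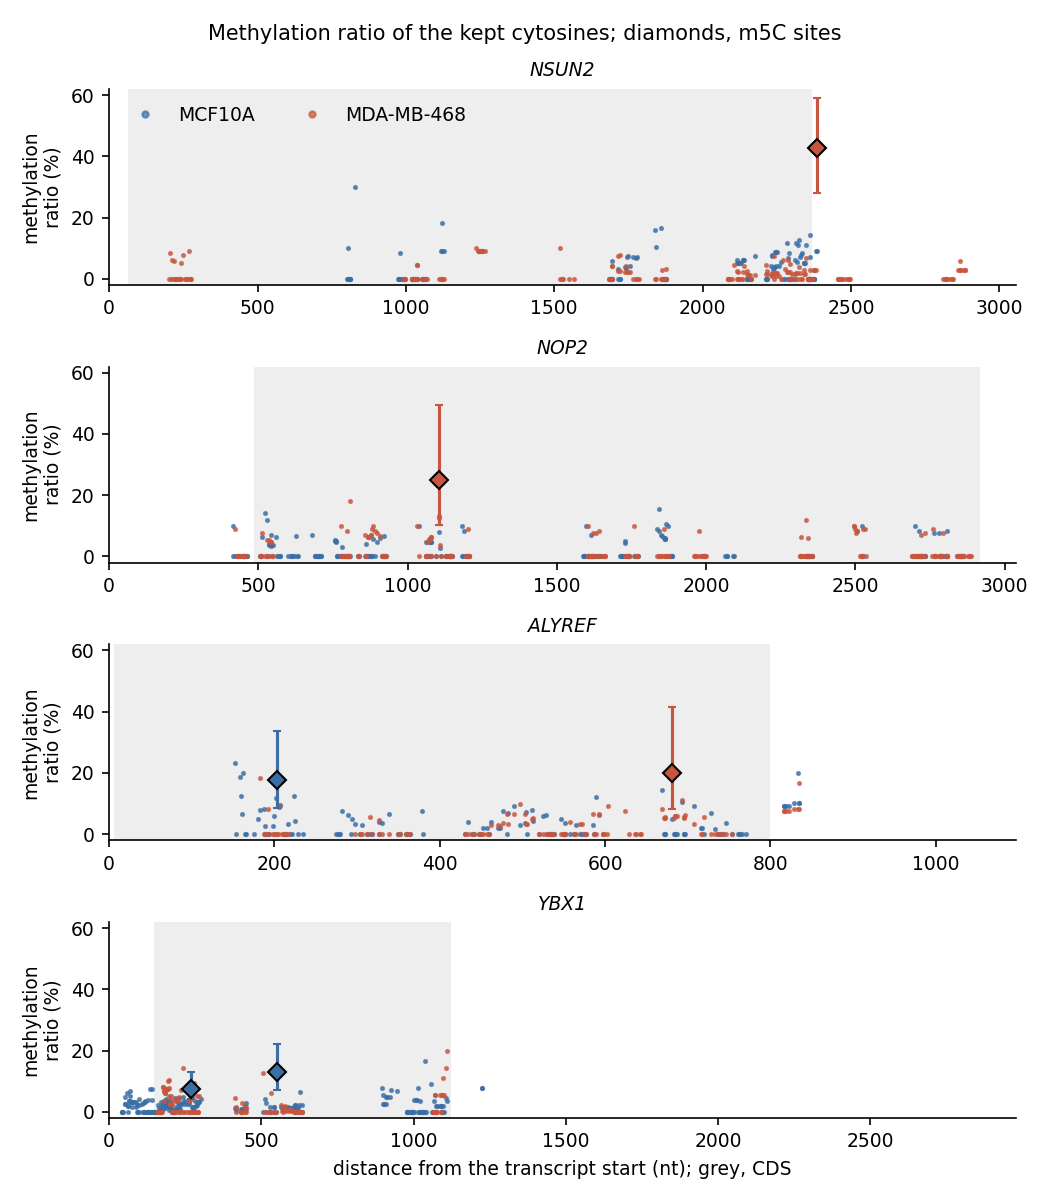
Methylation ratio (vertical axis, percent of counts unconverted) of the kept cytosines of NSUN2, NOP2, ALYREF and YBX1 by distance from the transcript start in nt, in MCF10A (blue) and MDA-MB-468 (red). Diamonds are m5C sites with their 95% Wilson intervals, and grey marks the CDS. The NSUN2 site at 42.9% stands above its neighbours, while the first YBX1 site at 7.43% lies among them.

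The depth limited what could pass. At a coverage of 10 a site needed 4 unconverted counts in either library, a ratio of 40%, and at a coverage of 100 it needed 9. A ratio of 20% would have passed at 52.5% of the kept sites of these genes in MCF10A and at 46.9% in MDA-MB-468. At the other sites a ratio of this size was not detectable.

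**Figure D4:**
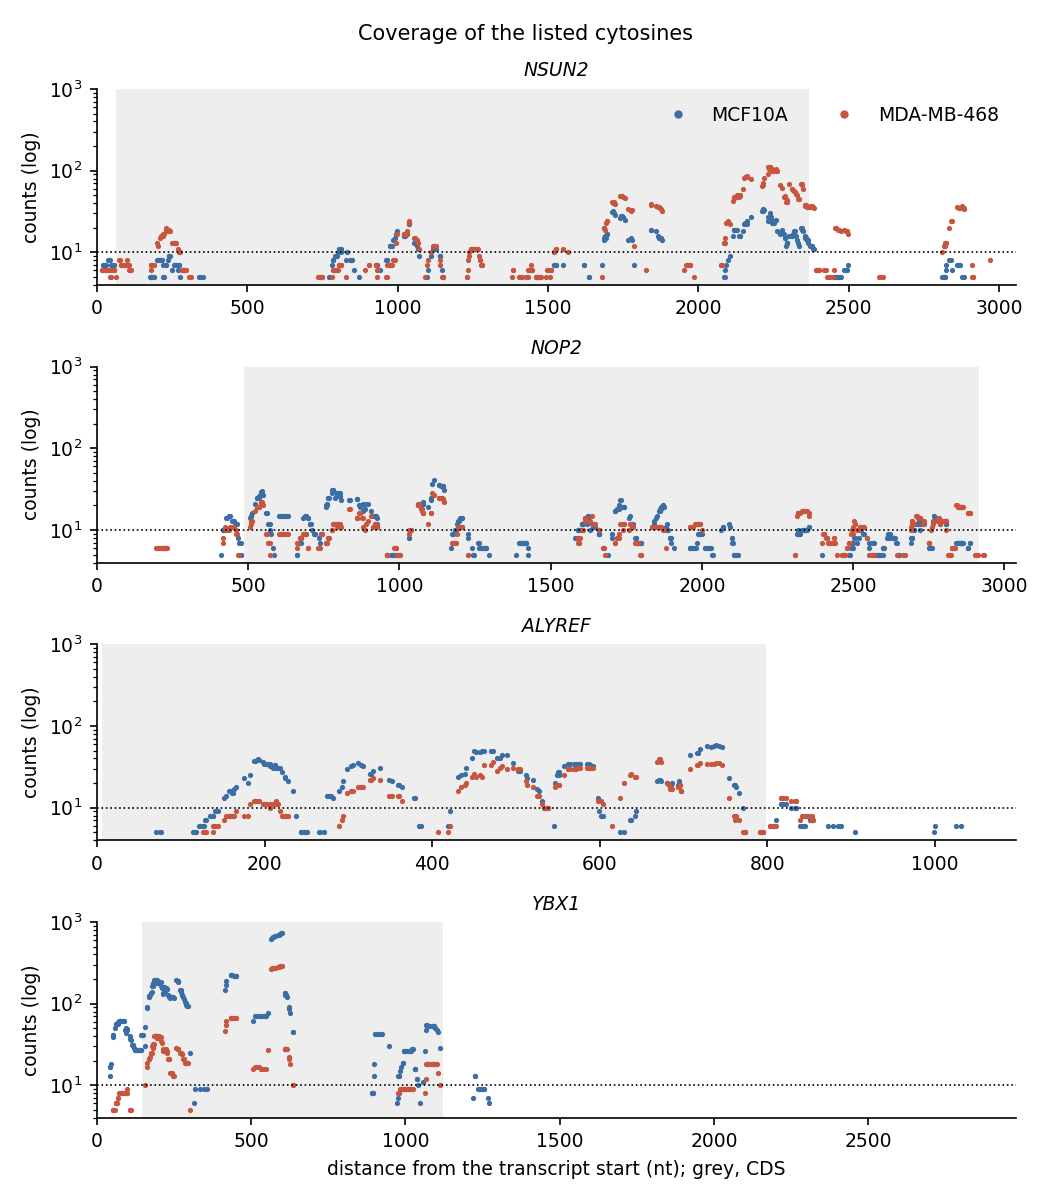
Coverage (vertical axis, counts, log scale) of the listed cytosines of NSUN2, NOP2, ALYREF and YBX1 by distance from the transcript start in nt, in MCF10A (blue) and MDA-MB-468 (red). The dotted line is the minimum coverage of 10 for a kept site, and grey marks the CDS. Coverage of NSUN2 is highest in MDA-MB-468 near the end of the CDS, and that of YBX1 is higher in MCF10A along the mRNA.

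The libraries were then compared site by site by Fisher's exact test, two-sided and adjusted over the 812729 sites kept in both. This compares the 2 libraries and not the lines, since there are no replicates. Over all these sites 0.0202% were higher and 0.0691% lower in MDA-MB-468. Of the 564 sites on the 9 genes none passed, and the smallest adjusted p of Fisher's exact test was 1. At an unadjusted p under 0.05 there were 5, or 0.887%, of which 3 were higher and 2 lower, beside 1.14% of all sites kept in both libraries, so the share was near that of all genes. The NSUN2 3′UTR site, with 42.9% against 9.09%, had an unadjusted p of 0.0679 in Fisher's exact test at a coverage of 11 in MCF10A. A p of this size does not show that the ratios were alike.

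Summed over all kept sites, the nonconversion rate of a gene adds up weak signals and incomplete conversion alike. Over the 9 genes it was 2.08% in MCF10A (95% Wilson interval 1.94% to 2.23%) and 1.98% in the MDA-MB-468 library (1.80% to 2.18%), beside 1.94% and 1.77% over all nuclear exonic sites. NSUN2 had 84 of 2254 counts unconverted in MCF10A, 3.73% (3.02% to 4.59%), and 134 of 6663 in MDA-MB-468, 2.01% (1.70% to 2.38%). Its higher rate was thus in the library without an NSUN2 m5C site. The intervals do not overlap, but they are too narrow because neighbouring cytosines share reads. ALYREF was above the library background in both, with 3.04% (2.54% to 3.63%) in MCF10A and 2.69% (2.12% to 3.40%) in MDA-MB-468.

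The other genes lay at or near the background. YBX1 had 1.85% in MCF10A and 1.86% in the MDA-MB-468 library, and NOP2 had 1.71% and 1.86%. NSUN5 had 2.48% (1.60% to 3.85%) and 1.26% (0.74% to 2.14%), and NSUN4 had 1 of 205 counts in MCF10A, 0.49%. All these intervals cover counting error within 1 library, and they are too narrow because counts of 1 read are not independent.

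**Figure D5:**
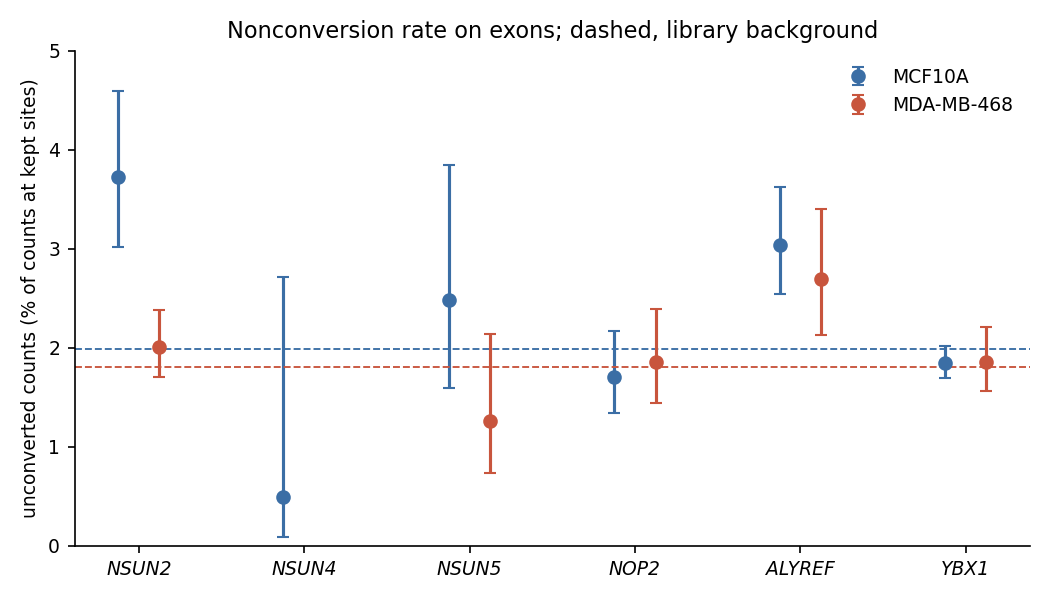
Nonconversion rate (vertical axis, percent of counts unconverted at kept sites) of the genes with kept sites in MCF10A (blue) and MDA-MB-468 (red), with 95% Wilson intervals. Dashed lines are the background of each library, 1.99% and 1.81%. ALYREF is above the background in both libraries and NSUN2 in MCF10A. NSUN4 had no kept site in MDA-MB-468.

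By region, the highest rate was in the 3′UTR of ALYREF, where 9 of 84 counts were unconverted at 8 sites in MCF10A, 10.7% (95% Wilson interval 5.74% to 19.1%), and 9 of 100 at 8 sites in MDA-MB-468, 9% (4.81% to 16.2%). None of these sites passed alone, and few reads can lie behind them. In YBX1 the 5′UTR had 2.32% in MCF10A and the CDS 1.80%, and in MDA-MB-468 the CDS had 1.86% with no kept 5′UTR site. The NSUN2 CDS had 3.75% in MCF10A and 1.82% in the MDA-MB-468 library, while its 3′UTR had 2.86% and 3.40%.

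In windows of 100 nt with at least 100 counts, the rates varied within a gene. In YBX1 nt 101 to 200 span the end of the 5′UTR and the start of the CDS. This window had the highest rate of YBX1 in MDA-MB-468, and the 27 cytosines kept there in both libraries all lay in the CDS. Over them, 49 of 848 counts were unconverted in MDA-MB-468, 5.78% (4.40% to 7.56%), and 99 of 4343 in MCF10A, 2.28% (1.88% to 2.77%). That window held 39.8% of the unconverted YBX1 counts of MDA-MB-468. In NSUN5 the 15 cytosines of nt 301 to 400 kept in both libraries had 10 unconverted of 243 counts in MCF10A, 4.12%, beside 4 of 236 in the other library, 1.69%, and the intervals overlap. In NSUN2 the 28 cytosines of nt 2301 to 2400 kept in both had 5.01% in MCF10A and 2.64% in the MDA-MB-468 library, although they include the m5C site of the latter.

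Predicted structure was read from the folded mRNAs, and a site counted as paired if it was so in any folded transcript of its gene. Of the kept sites, 82 in MCF10A and 63 in the MDA-MB-468 library were in a predicted base pair. Their nonconversion rate was 2.02% (1.55% to 2.63%) in MCF10A, beside 2.08% (1.94% to 2.24%) at unpaired sites. In MDA-MB-468 it was 3.79% (2.80% to 5.10%), beside 1.88% (1.69% to 2.08%).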

How the data were processed

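RNA BS-Seq of poly(A)-selected RNA was measured in 1 MCF10A and 1 MDA-MB-468 library. The authors trimmed reads with Trim Galore, aligned them to hg19 with MeRanTK per the methods (the submitters' processing notes list Bismark, which the methods use for DNA) and deposited raw counts of unconverted and converted reads per cytosine, with no normalization. Coverage in the files begins at 5, and no structure filter is in them. Whether reads with several matches were kept is not given in the sources used here.

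All nuclear positions fell on a cytosine of GRCh37. Counts were joined to GENCODE release 44 exons with Python 3.11.15, pandas 2.3.3 and scipy 1.17.1. Mitochondrial sites entered the background and the adjustment. The members, lists and alternatives were chosen with earlier results of these data known. All 9 genes were named, with the m5C site of highest coverage per gene and library, and up to 4 genes per list by level. MTERF4 and NSUN7 were named in addition, after their values were seen. Transcripts up to 8000 nt were folded with ViennaRNA 2.7.2 at 70 degrees, a pairing distance of 150 nt and an MEA gamma of 0.1. On simulated counts at the sites of MCF10A and MDA-MB-468, 95.5% and 96.5% of 200 methylated sites with a coverage of at least 20 were recovered. These shares hold at the simulated ratio and coverage alone and are not the sensitivity at the sites of the 9 genes. The simulated ratio was above that of every m5C site of these genes except the NSUN2 one. The simulated nonconversion rate was uniform, without structure or shared reads. There a ratio of 20% would have passed at 52.5% of the kept sites in MCF10A and at 46.9% in MDA-MB-468. Alternatives covered the level, scaling, coverage minimum, ratio minimum, structure and adjustment. QNB of the methods was not used. Wilson intervals are at 95%.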

Additional observations from a re-analysis of the deposited data

How the results depend on the processing

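No paired analysis was possible because each cell line has 1 library, and no library could be left out. Log2 RNA level ratios that changed sign, or became different calls, follow. With counts per listed cytosine, NSUN4 was 0.25 and ALYREF 0.18. With median ratio scaling ALYREF was 0.090. With scaling by all counts of the file NSUN5 was -0.052 and NOP2 -0.49, and with a coverage of at least 20 NOP2 was -1.25. The number of genes at least 2-fold lower in MDA-MB-468 fell from 2 to 1 with counts per listed cytosine and with the cytosines listed in both libraries. It was also 1 with a coverage of at least 10. There NSUN4 had no cytosine left in MDA-MB-468 and so no ratio, and it was not counted. The number at least 2-fold higher rose from 1 to 2 with a coverage of at least 20, where NSUN5 reached 3.86. The causes were not tested, except that a coverage minimum drops every thinly covered cytosine.

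Of the m5C sites, the 3 in MCF10A became 0 with a methylation ratio of at least 20%, since their ratios are lower. With a coverage of at least 5, the ALYREF exon 5 site no longer passed (adjusted p = 0.0702 in Fisher's exact test), and a YBX1 5′UTR site with 3 of 6 counts unconverted passed in MDA-MB-468. The NOP2 site is dropped where predicted base pairs are left out and with a coverage of at least 20, which it does not reach, and each leaves 2 sites in MDA-MB-468. Only base pairs of the 9 genes were left out, so nearly all of the background stayed unfiltered. A structure filter over all genes was not tested. The NSUN2 site passed under all 6 alternatives. The nonconversion rate over the 9 genes moved to 2.26% in the MCF10A library and to 2.28% in the MDA-MB-468 library with a coverage of at least 5, and 2.50% in MCF10A with sites weighted equally. No site of these genes differed between the libraries in Fisher's exact test under any of the 4 alternatives, with the smallest adjusted p of 0.230 over the 6 sites that passed in at least 1 library. Coverage limits these comparisons at most sites.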
